A study of Mus musculus with 18 samples.

Results

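The Notch genes described here were 10 members of the pathway among 15964 genes with a probe set of their own symbol: the receptor genes Notch1 and Notch4, the ligand genes Dll1, Dll4, Jag1 and Jag2, the glycosyltransferase gene Mfng and the target genes Hes1, Hes5 and Hey1. They were represented by every probe set whose platform annotation gave exactly 1 gene symbol and that symbol was a member, which gave 23 of the 36701 probe sets of the series. The annotation put 12 of them on chip A, 3 on chip B and 8 on chip C of the Affymetrix MGU74v2 set. GFP-positive cells, taken as endothelium, and the other cells of the retina, which were GFP-negative, were sorted at postnatal day 8 from dissociated, pooled retinas of homozygous Tie2-GFP transgenic FVB/N mice. All animals therefore carried the transgene, and GFP-negative cells of the same transgenic line were the only controls. The Tie2 promoter is active in endothelial cells and also in some blood-derived cells, so GFP marked promoter activity and not endothelial identity itself. Each population had 3 arrays per chip, 18 arrays in all, and the labels do not say whether these came from separate pools of animals, and each p-value therefore reflects no more than array-to-array spread, which may be technical.

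Notch receptors are single-pass proteins at the cell surface that are cut when a Delta or Jagged ligand on a neighbouring cell binds them, and the released intracellular part joins the DNA-binding protein RBPJ to switch on genes of the Hes and Hey families. In the growing retinal vessels of the mouse, Dll4 on the leading tip cells is known to restrain sprouting by their neighbours through Notch1, whereas Jag1 on the following stalk cells opposes it. Fringe enzymes such as Mfng add a sugar to the receptor and thereby change which ligand it answers to. In the neural retina the same pathway keeps progenitors undifferentiated and favours Müller glia, with Hes1 and Hes5 as its repressors of proneural genes.

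The promoters of Hes5, Notch4, Jag1, Jag2 and Dll1, whose level differed between the populations, are shown because RBPJ acts on DNA. RefSeq windows on GRCm38.p6, from 250 bases before to 50 bases after the gene start, were found for 7 of the 10 members (all but Mfng, Hes1 and Hey1), with 8 windows in all, 2 of them of Dll1. The RBPJ core TGGGAA, searched on both strands, occurred in 1 of these windows, that of Hes5, which held 2 matches. They began 226 and 82 bases before the start, the first of them on the opposite strand. Of 32851 windows of 300 bases in the mouse promoter table, 25.6% held the core on at least 1 strand. The sequences below run 5′ to 3′ on the strand of the gene, and capitals mark the RBPJ core.
Hes5, chr4:154960673-154960972, plus strand: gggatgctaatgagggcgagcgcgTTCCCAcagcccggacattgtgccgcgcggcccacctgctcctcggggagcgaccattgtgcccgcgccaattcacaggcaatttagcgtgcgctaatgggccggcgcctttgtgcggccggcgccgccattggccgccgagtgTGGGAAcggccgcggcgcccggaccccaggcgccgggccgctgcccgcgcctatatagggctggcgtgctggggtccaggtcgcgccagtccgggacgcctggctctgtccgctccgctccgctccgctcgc
Notch4, chr17:34564045-34564344, plus strand: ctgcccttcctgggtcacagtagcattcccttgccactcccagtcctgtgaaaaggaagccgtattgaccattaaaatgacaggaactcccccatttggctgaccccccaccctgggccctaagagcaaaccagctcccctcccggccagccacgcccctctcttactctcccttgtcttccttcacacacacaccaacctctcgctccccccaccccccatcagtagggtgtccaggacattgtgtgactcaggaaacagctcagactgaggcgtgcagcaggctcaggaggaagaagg
Jag1, chr2:137116471-137116770, minus strand: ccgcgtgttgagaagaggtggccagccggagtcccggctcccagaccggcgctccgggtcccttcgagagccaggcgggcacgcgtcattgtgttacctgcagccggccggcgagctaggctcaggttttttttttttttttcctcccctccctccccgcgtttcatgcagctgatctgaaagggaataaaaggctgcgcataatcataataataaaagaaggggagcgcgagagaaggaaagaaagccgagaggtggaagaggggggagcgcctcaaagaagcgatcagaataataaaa
Jag2, chr12:112929446-112929745, minus strand: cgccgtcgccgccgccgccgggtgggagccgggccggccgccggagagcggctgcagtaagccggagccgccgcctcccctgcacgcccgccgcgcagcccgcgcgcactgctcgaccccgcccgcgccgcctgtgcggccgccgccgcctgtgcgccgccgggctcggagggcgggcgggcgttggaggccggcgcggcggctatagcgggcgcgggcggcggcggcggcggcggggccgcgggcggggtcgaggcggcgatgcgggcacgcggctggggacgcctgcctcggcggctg
Dll1, first window, chr17:15375774-15376073, minus strand: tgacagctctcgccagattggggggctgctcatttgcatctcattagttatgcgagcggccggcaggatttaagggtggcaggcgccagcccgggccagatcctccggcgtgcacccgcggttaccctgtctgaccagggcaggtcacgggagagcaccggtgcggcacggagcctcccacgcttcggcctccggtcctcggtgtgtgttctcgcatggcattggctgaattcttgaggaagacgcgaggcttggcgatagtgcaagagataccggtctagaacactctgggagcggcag
Dll1, second window, chr17:15376883-15377182, minus strand: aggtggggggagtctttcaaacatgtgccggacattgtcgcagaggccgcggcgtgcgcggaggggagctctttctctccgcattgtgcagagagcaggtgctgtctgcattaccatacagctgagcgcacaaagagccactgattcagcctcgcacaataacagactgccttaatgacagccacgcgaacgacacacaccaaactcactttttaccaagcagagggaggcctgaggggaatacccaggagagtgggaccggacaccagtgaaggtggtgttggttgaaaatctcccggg
The Notch4, Jag1, Jag2 and Dll1 windows are without capitals because these letters do not occur in them, and the Jag2 window consisted of G and C at 86% of its bases. The N-box CACNAG, a motif bound by HES repressors, was present on at least 1 strand in 1 window each of Notch1, Dll4 and Dll1, and in 42.5% of all windows. Such a match is a description of the letters and not of binding.

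The sort was checked with cell type markers before the members were read. Of 10 endothelial markers 9 were higher in GFP-positive cells, and the summed intensity of the 9 on chip A was 9032 to 11690 on the GFP-positive arrays, against 186.1 to 220 on the GFP-negative arrays. Of 9 markers of Müller glia or progenitors 8 were lower. The sum of the 7 on chip A was 558.9 to 1213.5 on the GFP-positive arrays, against 4405.5 to 6318.6 on the GFP-negative arrays. Most of the 1213.5, in GFP-positive replicate 3, came from Glul 161826_r_at, which read 135.7, 156.2 and 986.1 on the GFP-positive arrays. None of 10 pericyte or mural markers passed the test, with sums over the 9 on chip A of 247 to 339.7 against 287.5 to 331.5. Of 10 microglia or leukocyte markers 2 were higher, with sums of 499 to 1433 against 412.6 to 443. The 1433 was GFP-positive replicate 3, and most of it came from Csf1r 161832_r_at, at 37.3, 41.2 and 929.8 on the GFP-positive arrays. Of 9 photoreceptor markers 3 were lower, with sums of 420.8 to 929.3 against 1081.3 to 2424.4, the 929.3 being GFP-positive replicate 2. Of 8 inner retinal neuron markers 2 were lower and 1, Stmn2, was higher (1.77, adjusted p = 0.0135 by limma). Of 6 astrocyte markers 2 were lower, and none of 3 red blood cell markers passed. GFP-positive replicate 3 stood apart on every chip, with a Spearman rank correlation of 0.911 to 0.929 with the other arrays of its population. All other pairs within a population lay between 0.96 and 0.987. Values without that array are therefore given beside many of the results that change without it.

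At an adjusted p under 0.05 in limma, 7 of the 23 member probe sets differed, 4 higher and 3 lower in GFP-positive cells. That is 30.4%, set against 16.3% of all probe sets on the 3 chips, of which 7.42% were higher and 8.86% lower. By chip it was 5 of 12 on A, where 18.3% of all probe sets passed, 1 of 3 on B, where 20.9% passed, and 1 of 8 on C, where 9.28% passed. The 4 higher probe sets belonged to Notch4, Jag1, Jag2 and Mfng, and the 3 lower ones to Dll1 and Hes5. At 12 of the 23 the 2 populations were fully separated, with no array of one inside the range of the other, against 37.3% of all probe sets. The median difference over the 23 was 0.06, beside medians of 0.0149, 0.0886 and 0.0457 over all probe sets of chips A, B and C. Each difference is the GFP-positive minus the GFP-negative mean of log2(intensity + 16), and the added 16 shrinks the change of a dim probe set.

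**Figure D1:**
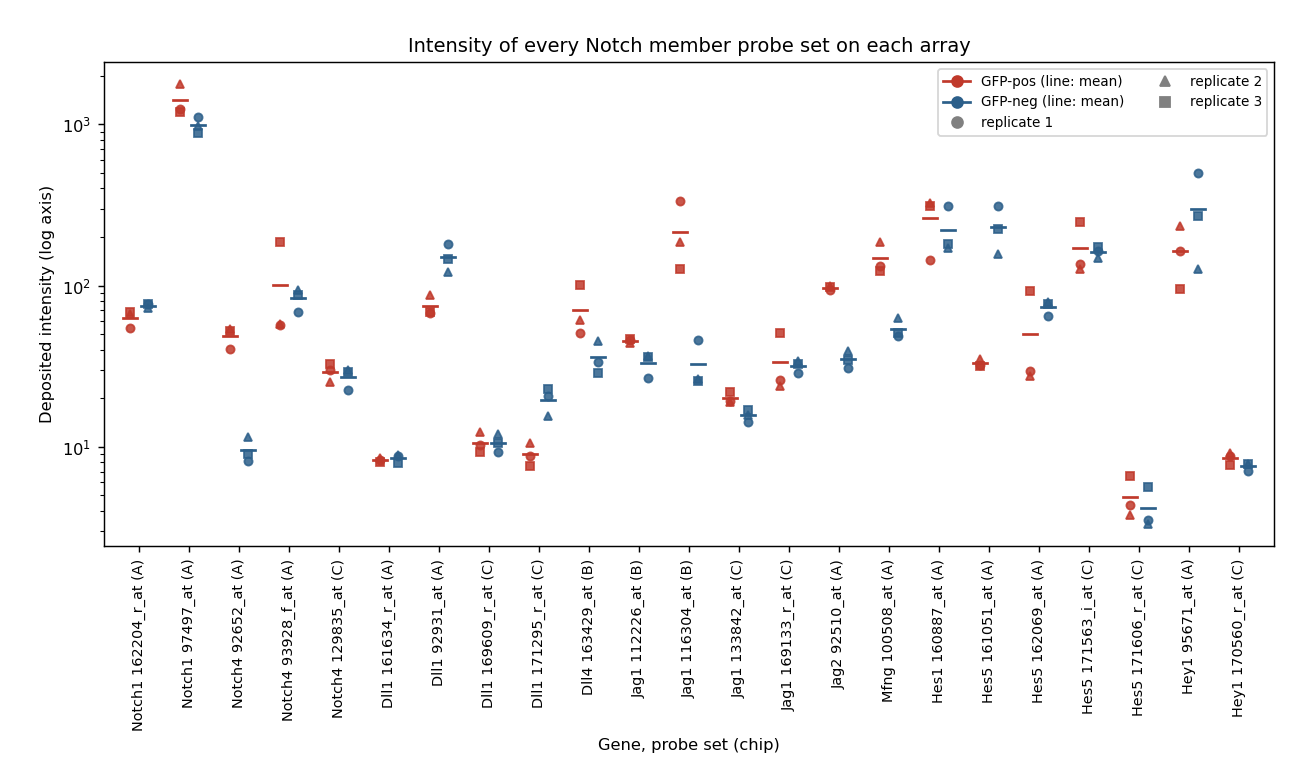
Deposited intensity on a log axis for each of the 23 member probe sets, with GFP-positive arrays in red left of GFP-negative arrays in blue, marker shapes for replicates 1 to 3 and lines for the means of 3 arrays. The populations stand apart at Notch4 92652_at, Jag1 116304_at, Jag2, Mfng and Hes5 161051_at, among others that include Notch1, Dll4 and Dll1 probe sets, whereas those of Hes1 and Hey1 overlap.

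Of the receptors, Notch4 was higher in GFP-positive cells by 1 of its 3 probe sets, and Notch1 did not pass. Notch4, a receptor known mainly from endothelium, read 40.1, 53.8 and 52.3 on the GFP-positive arrays and 8.20, 11.5 and 9.02 on the GFP-negative arrays with probe set 92652_at. Every GFP-positive array lay well above every GFP-negative one, and the means of 48.8 ± 7.52 and 9.58 ± 1.74 (SD, n = 3 arrays each, as for all means here) differed 5.09-fold. The log2 difference was 1.34 (SE 0.11, adjusted p = 0.000772 by limma). Since these are bulk populations, fewer cells of a type and less RNA per cell cannot be told apart.

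The other Notch4 probe sets did not show this difference. Probe set 93928_f_at, whose suffix marks probes shared within a sequence family, read 57.0, 57.6 and 186.5 on the GFP-positive arrays, against 68.8, 93.6 and 87.9 on the GFP-negative arrays. The third GFP-positive array was the high one, and without it the difference of 0.06 became -0.43 (adjusted p = 0.0546). On chip C, 129835_at overlapped at 29.2 ± 3.86 against 27.2 ± 4.0, with a difference of 0.07 (95% interval -0.19 to 0.32). The sources used here do not say which part of the transcript each probe set reads.

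Notch1, the main receptor of both vessels and neural progenitors, was bright in both populations. Probe set 97497_at read 1251, 1771 and 1200.0 on the GFP-positive arrays, against 1107, 973 and 880.3 on the GFP-negative arrays. The arrays did not overlap, but the difference of 0.49 (SE 0.17, unadjusted 95% interval 0.06 to 0.91) did not pass (adjusted p = 0.117), and it passed only with array weights (0.71, adjusted p = 0.0189) among 18 alternative settings. The second probe set, 162204_r_at, leaned the other way at 63.3 ± 7.63 against 74.9 ± 2.50 (-0.20, adjusted p = 0.208).

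The ligands divided by gene, with both Jagged genes higher, Dll1 lower and Dll4 not passing. Jag1, the ligand of stalk cells, read 333.4, 184.9 and 126.6 in GFP-positive and 46.0, 26.3 and 25.5 in GFP-negative cells with 116304_at. The GFP-positive arrays spread widely but all exceeded the GFP-negative ones, and the ratio of means was 6.59. Its log2 difference of 2.17 (SE 0.34, adjusted p = 0.00524) was the highest among the members, and it was 1.83 without GFP-positive replicate 1, the highest array, and 2.47 without GFP-positive replicate 3. Of the other 3 Jag1 probe sets, 112226_at and 133842_at were higher on all GFP-positive arrays without passing, at 0.34 (adjusted p = 0.0712) and 0.18 (adjusted p = 0.182). The last, 169133_r_at, overlapped at 33.4 ± 14.8 against 31.7 ± 2.80.

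Jag2, the second Jagged ligand, had 1 probe set, 92510_at, which read 93.4, 99.2 and 97.3 on the GFP-positive arrays, against 30.9, 39.4 and 34.7 on the GFP-negative arrays. Replicates lay close together in both populations and far from each other between them. The log2 difference was 1.15 (SE 0.08, adjusted p = 0.000506), a ratio of means of 2.76. Over the arrays left out in turn it ranged from 1.09 to 1.21.

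Dll4, the ligand of tip cells, was read by probe set 163429_at at 50.9, 61.3 and 100.6 in GFP-positive and 33.6, 45.3 and 28.8 in GFP-negative cells. All GFP-positive arrays were above all GFP-negative arrays, with replicate 3 the highest. The difference of 0.72 (SE 0.23, 95% interval 0.17 to 1.26) did not pass at an adjusted p of 0.0695. It passed under 3 of 18 alternatives, among them the omission of GFP-positive replicate 1 (0.89, adjusted p = 0.0455), and it was 0.48 without GFP-positive replicate 3 (adjusted p = 0.0638).

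Dll1, a ligand known from neural progenitors, went the opposite way. Probe set 92931_at read 67.7, 87.4 and 68.0 on the GFP-positive arrays, against 181.7, 120.6 and 146.2 on the GFP-negative arrays. Here every GFP-negative array was the higher one, and the means of 74.4 ± 11.3 and 149.5 ± 30.7 differed by -0.86 (SE 0.16, adjusted p = 0.016). With GFP-negative replicate 3 left out it no longer passed (-0.87, adjusted p = 0.0652). Probe set 171295_r_at on chip C was also lower, at 8.95 ± 1.51 against 19.6 ± 3.75 (-0.51, adjusted p = 0.0324). Its call ended without any one of GFP-positive replicates 1 and 2 and GFP-negative replicates 1 and 3 (adjusted p = 0.098, 0.0749, 0.132 and 0.106). The remaining Dll1 probe sets, 161634_r_at and 169609_r_at, were dim and overlapped, with differences of -0.01 and 0.00. Both lower calls of Dll1 stood beside lower sums of the Müller glia and progenitor markers in the same cells, and the part of those cells in the result was not tested.

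**Figure D2:**
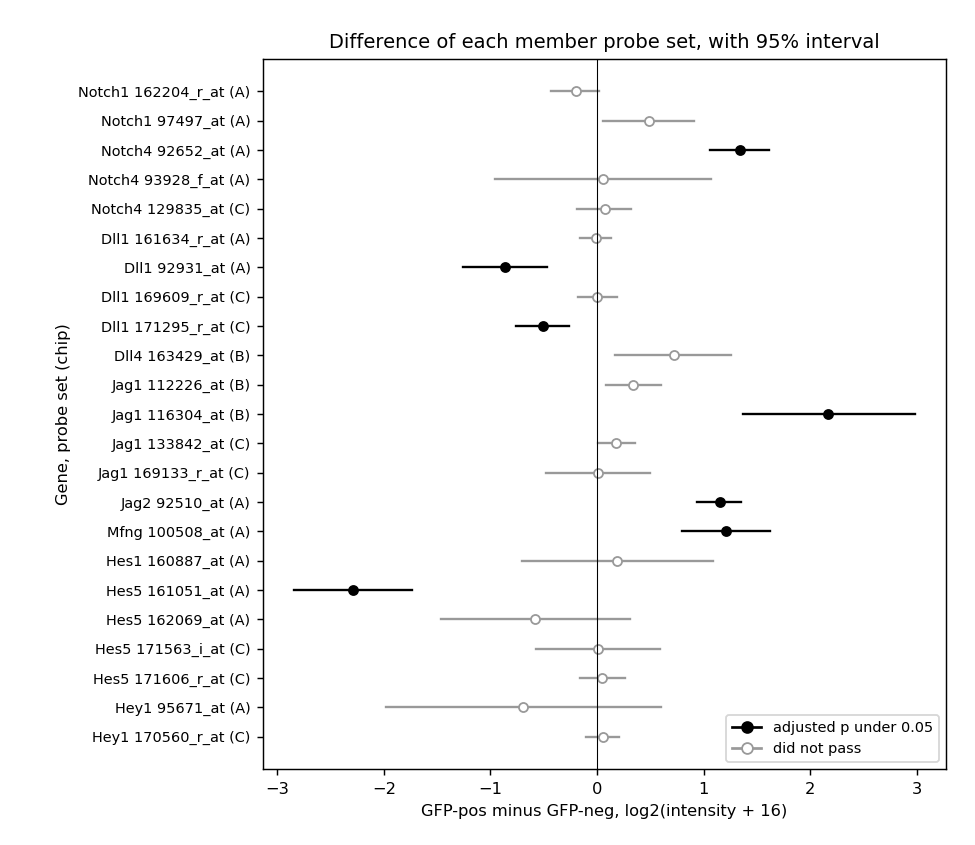
Log2 difference of each member probe set, GFP-positive minus GFP-negative, with 95% intervals that are not adjusted for the number of probe sets. Filled black points passed an adjusted p of 0.05. They lie at 1.34 for Notch4, 2.17 for Jag1, 1.15 for Jag2 and 1.21 for Mfng, and at -0.86, -0.51 and -2.29 for the 2 Dll1 probe sets and Hes5.

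Mfng, manic fringe, was higher in GFP-positive cells. Its probe set 100508_at read 131.7, 186.6 and 123.3 in GFP-positive and 48.4, 62.7 and 50.4 in GFP-negative cells. The populations were well apart, at means of 147.2 ± 34.4 and 53.8 ± 7.71, and the log2 difference was 1.21 (SE 0.17, adjusted p = 0.00507). The other fringe genes did not pass, with Lfng at -0.07 (adjusted p = 0.598) and Rfng at 0.07 (adjusted p = 0.722), and the difference between fringe genes was not tested. Mfng is also known from leukocytes, of whose markers Laptm5 (1.56) and C1qb (0.78) were higher and Ptprc (0.03) and Cx3cr1 (-0.01) were not, and their part in the result was not tested.

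None of the target genes was higher in GFP-positive cells, and 1 of their 7 probe sets was lower, a share of 14.3% that lies near the 16.3% of all probe sets. Hes5, a repressor known from neural progenitors and Müller glia, read 32.3, 34.8 and 31.6 on the GFP-positive arrays, against 309.8, 157.3 and 223.7 on the GFP-negative arrays with 161051_at. The GFP-positive arrays were low and tight, while the GFP-negative arrays were several times higher and differed among themselves. The log2 difference of -2.29 (SE 0.22, adjusted p = 0.00142) was the lowest among the members and ranged from -2.52 to -2.06 with single arrays left out.

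The Hes5 probe set 162069_at read 29.6, 27.3 and 92.2 on the GFP-positive arrays, against 65.1, 78.7 and 76.4 on the GFP-negative arrays. Replicates 1 and 2 of the GFP-positive cells were low, and replicate 3 exceeded all GFP-negative arrays. The difference of -0.58 did not pass (adjusted p = 0.358), and without GFP-positive replicate 3 it was -1.01 and passed (adjusted p = 0.00156). On chip C, 171563_i_at read 135.9, 126.8 and 246.8 on the GFP-positive arrays, against 163.2, 148.8 and 173.4 on the GFP-negative arrays. Replicate 3 was again the high array, so that the difference of 0.01 became -0.27 without it (adjusted p = 0.0668). The last Hes5 probe set, 171606_r_at, was dim at 4.90 ± 1.51 against 4.15 ± 1.3.

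Hes1, a target in many cell types including endothelium, read 143.2, 326.1 and 313.4 in GFP-positive and 309.8, 171.9 and 180.4 in GFP-negative cells. Each population held 1 array apart from the other pair, replicate 1 in both, and they overlapped throughout. The difference of 0.19 (SE 0.37, 95% interval -0.70 to 1.09, adjusted p = 0.786) has an interval that includes a 2-fold rise.

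Hey1, the Hes-related target of endothelium and other tissues, read 164.6, 233.5 and 94.8 on the GFP-positive arrays, against 502, 126.4 and 268.4 on the GFP-negative arrays with 95671_at. The arrays overlapped around means of 164.3 ± 69.4 and 298.9 ± 190, with the wider spread in GFP-negative cells. The difference was -0.69 (SE 0.52, 95% interval -1.98 to 0.60, adjusted p = 0.455), and it lay between -1.17 and -0.24 with single arrays left out. The second probe set, 170560_r_at, was dim at 8.51 ± 0.738 against 7.59 ± 0.416.

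Among the GFP-negative arrays, Hes5 (161051_at), Hey1 (95671_at), Dll1 (92931_at) and Hes1 (160887_at) took the same order, highest in replicate 1 and lowest in replicate 2. No other probe set of these genes did, and the named probe sets were picked after their values were seen. The Müller glia and progenitor markers of chip A summed to 6318.6, 4813 and 4405.5 in GFP-negative replicates 1, 2 and 3, and the photoreceptor markers to 2325.6, 1081.3 and 2424.4. Replicate 1 was thus also the highest in the Müller glia sum and replicate 2 the lowest in the photoreceptor sum, but neither sum took the full order of the Notch probe sets. The part of these cells in the Notch values was not tested.

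**Figure D3:**
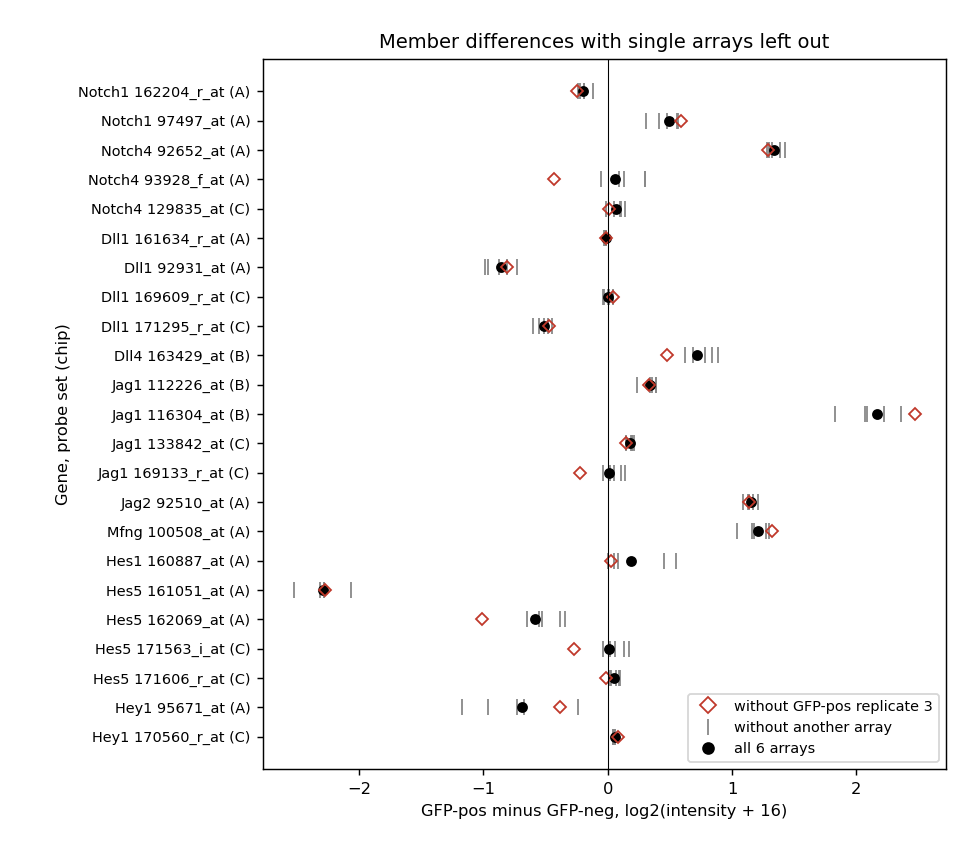
Log2 difference of each member probe set with all 6 arrays of its chip (black), without GFP-positive replicate 3 (red diamonds) and without each of the other arrays (grey ticks). Without replicate 3 the probe sets Notch4 93928_f_at, Jag1 169133_r_at, Hes5 162069_at and Hes5 171563_i_at shift down to -0.43, -0.22, -1.01 and -0.27, while the 7 called probe sets keep their sign.

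The alternative settings separated the member calls into those that held throughout and those that did not. The calls of Jag1 116304_at, Jag2, Mfng and Hes5 161051_at held under all 18 alternatives, and that of Notch4 92652_at under all 17 that retained the probe set, since it was too dim for the setting that kept mean intensities of at least 50. The Dll1 calls held under 14 of 18 and 8 of 16. Apart from 1 Dll1 probe set, the 7 called probe sets carried the plain suffix, which 14 of the 23 had. The remaining 9 carried suffixes that mark probes chosen under relaxed rules, incomplete probe sets or shared families.

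The genes whose pattern over the 6 arrays was most like that of a member were found by Pearson correlation of log2 values on the same chip, as a description. Only members whose brightest probe set was called were used, which left out Notch4 and Hes5 despite their called dimmer probe sets. For Dll1 (92931_at) the genes most like it were Jun (r = 0.9979), Rbpj (0.9952) and Api5 (0.9945). For Jag1 (116304_at) they were Rtp4, Afdn and Rasgef1a (0.9977, 0.9968 and 0.9957), for Jag2 Pbx3, Chrnb2 and Rgl2 (0.999, 0.9979 and 0.9978), and for Mfng Jak3, Arrb1 and Grk5 (0.9975, 0.9971 and 0.9965). Between 288 and 508 probe sets with another symbol exceeded r = 0.95 with each of these members, so a high correlation over these 6 arrays was common and did not single out the genes named.

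Of 58 other Notch pathway genes, 49 were measured by 1 probe set each, and 3 were higher, 13 lower and 33 did not pass. That is 32.7% called, against 20.7% of 15964 genes measured in the same way, of which 9.43% were higher and 11.3% lower. The median difference of the list was -0.08, beside 0.0369 over all genes.

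The 3 higher genes act on the making and cutting of the receptor or on its turnover, as do some of the lower genes below, such as Aph1b, Aph1c and Fbxw7. Furin, the protease that processes Notch on its way to the surface, was 234.3 ± 90.9 on the GFP-positive arrays, against 82.7 ± 16.7 on the GFP-negative arrays (1.29, adjusted p = 0.0276). Adam10, the protease that cuts ligand-bound Notch, was 330.2 ± 87.7 against 151 ± 25.0 (1.03, adjusted p = 0.026). A dimmer Adam10 probe set, 100751_at, did not pass (0.22, adjusted p = 0.199). Itch, a ubiquitin ligase that targets Notch, was 270.1 ± 37.0 against 154.6 ± 5.88 (0.74, adjusted p = 0.00614). The calls of Furin and Adam10 both ended without GFP-positive replicate 1 or without any one GFP-negative array, which left 1 higher gene, whereas 5 were higher without GFP-positive replicate 3.

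Dner had the largest fall among the 13 that were lower. This neuronal transmembrane protein with Delta-like repeats read 22.8, 22.2 and 25.3 on the GFP-positive arrays, against 994, 625.3 and 677.6 on the GFP-negative arrays. It was uniformly low in GFP-positive cells, and the log2 difference was -4.28 (SE 0.18, adjusted p = 2.88e-05). The Deltex genes, which encode ubiquitin ligases that bind Notch, included Dtx4 at 318.1 ± 71.1 against 2281.9 ± 359 (-2.79) and Dtx1 at 51.1 ± 8.43 against 193.8 ± 26.0 (-1.64), while Dtx2 (-0.05) and Dtx3l (0.55, adjusted p = 0.0587) did not pass. Hes6, an inhibitor of Hes1 in neuronal differentiation, was 23.0 ± 1.52 against 76.7 ± 10.0 (-1.25).

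Some genes of the nuclear machinery were lower as well. Rbpj, the DNA-binding partner of Notch, was 29.9 ± 3.29 on the GFP-positive arrays, against 51.9 ± 6.11 on the GFP-negative arrays (-0.56, adjusted p = 0.0119). The corepressor genes Ctbp1, Ctbp2 and Tle1 differed by -0.69, -0.84 and -0.80, and the coactivator gene Snw1 by -0.50, whereas the coactivator genes Maml1, Maml2 and Ep300 did not pass (0.08, 0.06 and -0.19). Fbxw7, which marks intracellular Notch for degradation, differed by -1.03 and Neurl1a, a ligand-directed ubiquitin ligase, by -0.80. Of the gamma-secretase genes, which encode the complex that cuts Notch within the membrane, Aph1b and Aph1c were lower at -1.05 and -0.55, whereas Aph1a did not pass at 0.84 (adjusted p = 0.0927). Without GFP-positive replicate 3, its highest array, Aph1a was at 0.52 and passed (adjusted p = 0.0072).

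The brightest pathway genes that did not pass were Poglut1, a glycosyltransferase of Notch (-0.36, adjusted p = 0.0851), the endocytic adaptor Epn1 (0.39, adjusted p = 0.673, and -0.20 without GFP-positive replicate 3) and the corepressor Spen (-0.37, adjusted p = 0.0652). Of the 16 calls in the list, 7 held with each array left out in turn. The number lower was 8 without GFP-negative replicate 3, among them no longer Rbpj (adjusted p = 0.0538), Ctbp2 (adjusted p = 0.056), Ctbp1 (adjusted p = 0.135), Tle1 (adjusted p = 0.074) and Neurl1a (adjusted p = 0.079). Fbxw7 did not pass without GFP-negative replicate 1 or 2 (adjusted p = 0.0501 and 0.0516), nor Aph1c without GFP-positive replicate 2 (adjusted p = 0.0622), and the calls of Ctbp1, Tle1 and Neurl1a each ended with other arrays left out as well.

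**Figure D4:**
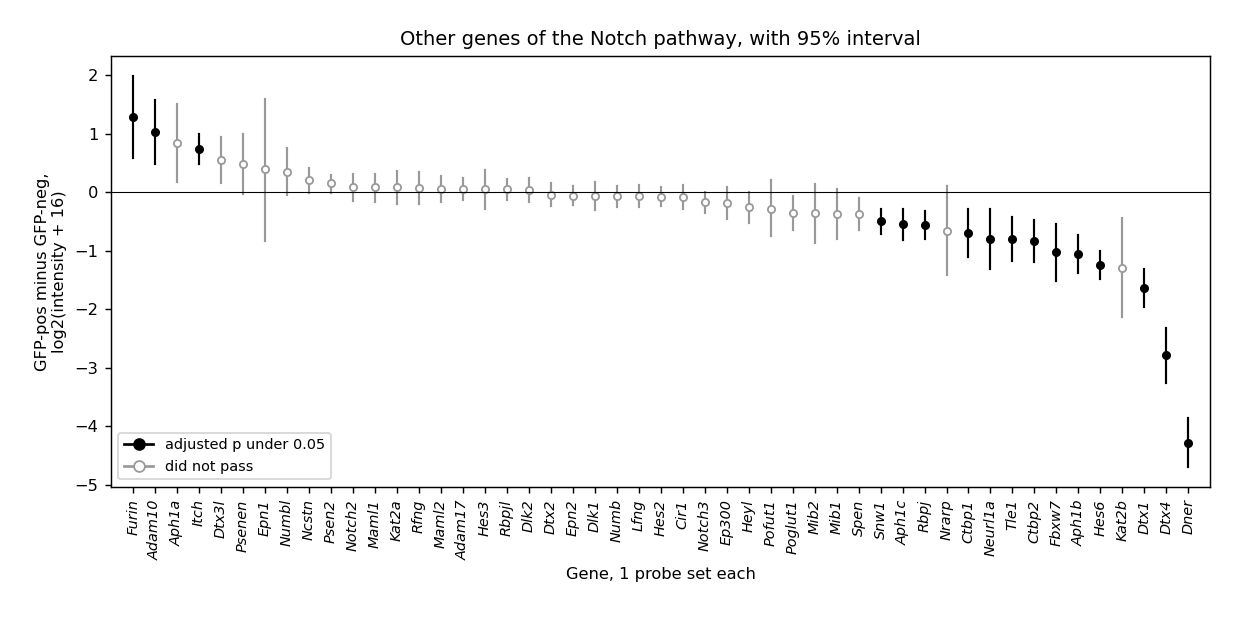
Log2 difference, GFP-positive minus GFP-negative, of the 49 measured genes of the pathway that are not members, 1 probe set each, with 95% intervals. Filled points passed an adjusted p of 0.05. Furin, Adam10 and Itch pass above 0, and the 13 below 0 reach -4.28 at Dner.

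Genes known to answer to Notch in endothelium were higher for 6 of 12 measured members, none was lower, and their median difference was 0.93. That is 50% called, against 20.7% of all genes, of which 9.43% were higher. The 6 were Unc5b, a netrin receptor (3.05), the transcription factor Sox17 (3.01), Esm1, a secreted proteoglycan of tip cells (2.49), the VEGF receptor genes Flt1 (1.96) and Flt4 (1.79), and Gja4, the arterial connexin (1.43). The brightest that did not pass were Kdr (0.01), Efnb2 (-0.50) and Gja5 (0.15). Without GFP-positive replicate 3, Efnb2 was at -0.25 (adjusted p = 0.0945). Apln, the gene of a peptide of tip cells, is counted as not passed from its probe set on chip A (0.20), whereas 163902_at on chip B (3.0, adjusted p = 0.00199) and 169183_i_at on chip C (0.42, adjusted p = 0.0146) were higher. Over the whole list, 7 of 14 further probe sets were called, against 16.3% of all probe sets. Those of Flt4 (104416_at, -0.02, adjusted p = 0.886) and Unc5b (106800_at and 112956_at, 0.22 and 0.21) did not pass. The list was not split by whether Notch raises or lowers a gene, so its count and median give no direction of Notch activity. Several of these genes also mark endothelium or its subtypes, so Notch activity and cell identity cannot be told apart with this list.

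Proneural transcription factor genes, which HES proteins repress, were measured by 1 probe set each. By that probe set 2 of 7 were lower and none was higher, with a median difference of -0.10. That is 28.6% called, against 20.7% of all genes, of which 11.3% were lower. Neurod4 read 24.7, 61.6 and 28.7 on the GFP-positive arrays, against 1143, 1273 and 1172 on the GFP-negative arrays (-4.54, adjusted p = 0.000192). Neurod1 was 79.4 ± 68.2 against 1009.6 ± 269 (-3.61, adjusted p = 0.00481), with 39.6, 158.1 and 40.4 on the GFP-positive arrays. Both are known from neurons and their precursors. The brightest others, Neurod2, Ptf1a and Atoh7, did not pass at -0.10, -0.09 and -0.03. Each of these 3 genes had another probe set that was called, in differing directions. Neurod2 was higher by 105901_at (0.58, adjusted p = 0.0244), Ptf1a lower by 169721_f_at (-0.75, adjusted p = 0.04) and Atoh7 lower by 139124_f_at (-1.15, adjusted p = 0.000425). Neurod1 was also lower by its further probe set on chip B, 163624_i_at (-2.16, adjusted p = 0.00875).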

How the data were processed

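Per the labels' protocols, RNA of the sorted cells was amplified and biotin-labelled for 1-colour Affymetrix MGU74v2 arrays. The authors deposited 1 linear intensity for each probe set and array. The probe summary, background correction and scaling behind these intensities could change every difference and are not given in the sources used here. Array medians within a chip lay close together (43.3 to 44.5, 40.7 to 44.6 and 32.5 to 34.4 on chips A, B and C), so the values were kept as deposited. Detection calls were not used here, and a dim intensity may be background. The number of arrays limits the precision.

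Groups and replicate numbers came from the sample titles. Each chip was fitted alone over its whole table, as log2 of intensity plus 16, by the two-sided test of limma 3.58.1 (functions lmFit and eBayes, run under R 4.3.3), and p-values were adjusted by Benjamini-Hochberg within the chip. The fit was tested on simulated data. Genes outside the members were measured by their brightest single-symbol probe set on the first chip that held them. Those named include all called genes of a list and the brightest 3 that did not pass. The members, lists and tests were chosen with earlier results of these data known. Sequences are from RefSeq on GRCm38.p6. The 18 alternatives covered normalization, pseudocounts of 1 and 64, a minimum mean intensity of 50, robust trend fitting, array weights, a block for the replicate number, adjustment over 3 chips, stricter thresholds, omission of suffixed probe sets and each array left out. Figures were drawn with matplotlib 3.10.9.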

Additional observations from a re-analysis of the deposited data

How the results depend on the processing

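Over 395 combinations of a member probe set and an alternative setting, 376 kept the direction or stayed uncalled, 12 lost a call, 7 gained one and 0 reversed a called direction. The number of member probe sets called higher stayed between 3 and 6 under all 18 alternatives. The number called lower, 3 as reported, was 1 at an adjusted p under 0.01 and 1 with a minimum of 2-fold, and ranged from 1 to 4 with single arrays left out. With the replicate block it was 1, because both Dll1 calls ended (adjusted p = 0.0626 and 0.125). The labels do not say whether same-numbered arrays are paired. Deviations of same-numbered arrays from their population means correlated at 0.175 to 0.292 for replicate 1 and at -0.135 to -0.368 for replicates 2 and 3. Replicate 1 correlated best with its own number on chips A and B, but on no chip did all arrays do so. With 3 arrays per population the deviations depend on each other, so these values cannot settle the pairing. The block also ended the calls of Furin (adjusted p = 0.0833), Rbpj (0.0593) and Fbxw7 (0.0506), and left 641 calls on chip C, against 1101. Other Notch pathway genes called higher numbered 6 with array weights and 1 at an adjusted p under 0.01, and 1 to 5 with arrays left out, and those called lower 5 at an adjusted p under 0.01, 6 with a minimum of 2-fold and 8 to 14 with arrays left out. Calls over chips A, B and C numbered 3997, 4215 and 3924 with array weights, 1153, 1304 and 458 at an adjusted p under 0.01, and 1095, 1084 and 525 with a minimum of 2-fold. With arrays left out there were 1312 to 3469 on chip A, 1652 to 3130 on chip B and 558 to 2976 on chip C, and chip C had 653 without suffixed probe sets, where fewer probe sets were tested. Without GFP-positive replicate 3, calls were gained by Kat2b (-0.95, adjusted p = 0.0356), Nr2f2 (0.60, adjusted p = 0.0065) and Neurog2 (-0.51, adjusted p = 0.00528). The causes of the other shifts were not tested. With 3 arrays per population and no detection calls, small differences of dim probe sets could not be resolved.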

Other observations

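Of the other Notch pathway genes, 25 had further probe sets, 35 in all, looked up after the values of the first were seen. Of these 35, 8 were called, against 16.3% of all probe sets of the series. The receptor gene Notch2, which did not pass with its first probe set, was lower by 104188_at, at 14 ± 3.96 on the GFP-positive arrays, against 36.3 ± 9.25 on the GFP-negative arrays (-0.79, adjusted p = 0.0194 by limma). Rbpj was also lower by 117046_at on chip B, at 339 ± 84.8 on the GFP-positive arrays, against 575 ± 35.3 on the GFP-negative arrays (-0.76, adjusted p = 0.0325 by limma). Fbxw7 was lower by 112331_at on chip B (-2.06, adjusted p = 0.000451) but did not pass with 108910_at (-0.22). Dtx4 was lower on chip C as well (-1.16, adjusted p = 0.00374), as was Hes6 (-0.66, adjusted p = 0.00674). Psenen, a gamma-secretase subunit that did not pass on chip A, was higher by 164897_f_at on chip B at 129 ± 23.1 against 77.8 ± 9.06 (0.62, adjusted p = 0.0238), and its probe set on chip C was at 0.03.

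Further probe sets of other genes were mixed. Dtx1 was at 0.09 on chip C (adjusted p = 0.433), Itch at 0.10 (adjusted p = 0.783), and both further Neurl1a probe sets leaned upwards without passing, at 0.24 and 0.14. Snw1, lower with its first probe set, was at 0.26 on chip B (adjusted p = 0.122). Ctbp2 was lower by a second probe set on chip A (-1.20, adjusted p = 0.00699) but leaned upwards with 164211_at on chip B (0.31, adjusted p = 0.145). Of 4 Dner probe sets on chip C, 168465_r_at was lower (-0.94, adjusted p = 0.0288) and the other 3 did not pass.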
